A study of Homo sapiens with 16 samples.

Results

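The 37 genes of the human mitochondrial genome were followed in RNA-seq counts of LNCaP, an androgen-sensitive line from human prostate cancer. They were taken from the count table as every gene placed wholly on chromosome MT, which gave 37 of 58051 genes. Of these, 13 encode proteins, 2 encode rRNAs and 22 encode tRNAs. The study asked which genes respond when IRE1α-XBP1s signaling is lost. In a knockdown experiment, cells were transfected with Allstar control siRNA (siCtrl) or XBP1-specific siRNA (siXBP1) and kept for 2 days. In an inhibitor experiment, cells received DMSO (Vehicle) or 10 µM MKC8866, an inhibitor of the IRE1α RNase, for 24 h. Every group had 4 libraries, all from cells at passage 20. Before harvest, the cells of all 16 libraries were also given thapsigargin (TG), at 30 nM over 3 h. By stopping calcium uptake into the endoplasmic reticulum TG causes ER stress, so every comparison was between stressed cells, and no unstressed group was compared. The 2 experiments had separate controls and different pretreatment times. The labels do not say whether the 4 libraries of a group came from separate cultures, so the p-values measure the spread between these libraries.

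The mitochondrial genome is a small circle without introns, and each of its strands is transcribed as a long precursor from promoters in the noncoding control region. tRNAs lie between most of the rRNA and mRNA genes, and their excision releases the neighboring RNAs, most of which then receive short poly(A) tails. The heavy-strand transcript carries both rRNAs and nearly all mRNAs, whereas the light-strand transcript carries MT-ND6 and a group of tRNAs. The encoded proteins are core subunits of respiratory complexes I, III and IV and of ATP synthase, and each of these complexes also needs many subunits from nuclear genes.

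The borders of the genes decide which fragments could be counted, because a fragment overlapping more than 1 gene was left out by the authors' counting. The first sequence shows how closely the rRNA genes are packed: MT-RNR1 (12S rRNA) and MT-RNR2 (16S rRNA) are separated only by MT-TV, the valine tRNA, printed in capitals with 30 bases of each rRNA gene (hg38, chrM:1572-1700, plus strand). The second shows in capitals the widest gap beside a tRNA gene outside the control region (chrM:5657-5826, minus strand). These 31 bases between MT-TC (cysteine tRNA) and MT-TN (asparagine tRNA) hold the origin of light-strand replication. The third is the proline tRNA gene MT-TP, which borders the control region and collected the most fragments of any tRNA gene, with its anticodon in capitals (chrM:15956-16023, minus strand). The last 2 show in capitals the bases that mRNA genes share, 46 bases between MT-ATP8 and MT-ATP6 (chrM:8517-8582) and 7 bases between MT-ND4L and MT-ND4 (chrM:10750-10776), both on the plus strand. In each overlap the capitals open with the start codon of the second gene and close with the stop codon of the first.
MT-RNR1, MT-TV, MT-RNR2: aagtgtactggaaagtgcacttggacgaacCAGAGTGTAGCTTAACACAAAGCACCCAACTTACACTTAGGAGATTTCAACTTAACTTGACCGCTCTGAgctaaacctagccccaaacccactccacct
MT-TC, gap, MT-TN: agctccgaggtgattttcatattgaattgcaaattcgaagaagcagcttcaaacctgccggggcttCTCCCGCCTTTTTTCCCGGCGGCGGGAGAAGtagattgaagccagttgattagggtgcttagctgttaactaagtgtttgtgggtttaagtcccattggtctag
MT-TP: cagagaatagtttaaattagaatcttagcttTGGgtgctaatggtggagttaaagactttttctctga
MT-ATP8, MT-ATP6: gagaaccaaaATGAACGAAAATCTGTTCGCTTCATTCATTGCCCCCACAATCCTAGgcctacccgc
MT-ND4L, MT-ND4: acctactccaATGCTAAaactaatcgt

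Between 28713607 and 34509488 fragments were counted per library. XBP1 was at 51.6 to 54.8 counts per 1000000 counted fragments (CPM) in siXBP1 against 355 to 413 CPM in siCtrl. It was at 537 to 628 CPM in MKC8866 against 481 to 540 CPM in Vehicle, counted over spliced and unspliced XBP1 together. All 9 prostate luminal markers (such as KLK3 and FOLH1) were detected in every group. In siXBP1 6 of the 9 were called lower, beside 18.2% of all tested genes. In MKC8866 1 was called lower and 2 higher, beside 3.11% and 1.36% of all tested genes. The part of these markers in the mitochondrial results was not tested. Of 5 markers of other cell types, COL1A1 was at group means of 27.8 to 33.2 CPM and VIM at 2.89 to 3.38 CPM, while PTPRC, PECAM1 and KRT5 had group means of at most 0.068 CPM. One control library, siCtrl replicate 4, stood apart from the other 3 siCtrl libraries in most mitochondrial genes, and results that rest on it are given with and without it.

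Mitochondrially encoded RNA made up 2.76% to 5.04% of the counted fragments of a library. The 95% Wilson interval of a library's share was at most 0.0157 percentage points wide. This covers counting error only, and differences between libraries were far wider. The 13 protein-coding genes took 3.22%, 2.47%, 2.95% and 1.69% of fragments in siCtrl replicates 1 to 4 (2.58% ± 0.672, SD, n = 4). In siXBP1 they took 3.07%, 3.01%, 2.55% and 2.85% (2.87% ± 0.233, n = 4). The siXBP1 values lay within the range of siCtrl. Without siCtrl replicate 4 the siCtrl mean was 2.88% ± 0.379 (n = 3), and the log2 ratio of the siXBP1 to the siCtrl mean went from 0.15 to -0.0053. In Vehicle they took 2.67%, 2.82%, 2.63% and 2.62% (2.69% ± 0.0898, n = 4). The 4 MKC8866 libraries had 2.54%, 2.66%, 2.30% and 2.20% (2.42% ± 0.214, n = 4), of which 3 were below every Vehicle library and replicate 2 was within the Vehicle range. In bulk RNA, fewer cells with many mitochondrial transcripts and less mitochondrial RNA per cell cannot be told apart.

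The 2 rRNA genes took 1.81%, 1.64%, 1.62% and 1.05% of fragments in siCtrl and 1.78%, 1.84%, 1.51% and 1.77% in siXBP1. The siCtrl mean was 1.53% ± 0.329 (SD, n = 4), and 1.69% ± 0.102 (n = 3) without replicate 4, beside 1.73% ± 0.149 (n = 4) in siXBP1. In Vehicle they took 1.44% ± 0.0394 (SD, n = 4) and in MKC8866 1.42% ± 0.0501 (n = 4), with overlapping ranges. The ratio of rRNA to mRNA fragments was 0.539, 0.524, 0.525 and 0.551 in Vehicle replicates 1 to 4 and 0.555, 0.559, 0.595 and 0.640 in the MKC8866 replicates. Every MKC8866 library was thus above every Vehicle library in this ratio, which does not depend on scaling between libraries. The nearest libraries were close, Vehicle replicate 4 at 0.551 and MKC8866 replicate 1 at 0.555. All MKC8866 values lay within the range of siCtrl in the other experiment, 0.549 to 0.665. In the knockdown experiment the ratio overlapped, at 0.600 ± 0.0547 in siCtrl and 0.601 ± 0.0195 in siXBP1 (SD, n = 4 each). The 22 tRNA genes together took 0.0123% to 0.0167% of fragments in any library. Shares had no test, because they are sums over genes chosen as a group.

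**Figure D1:**
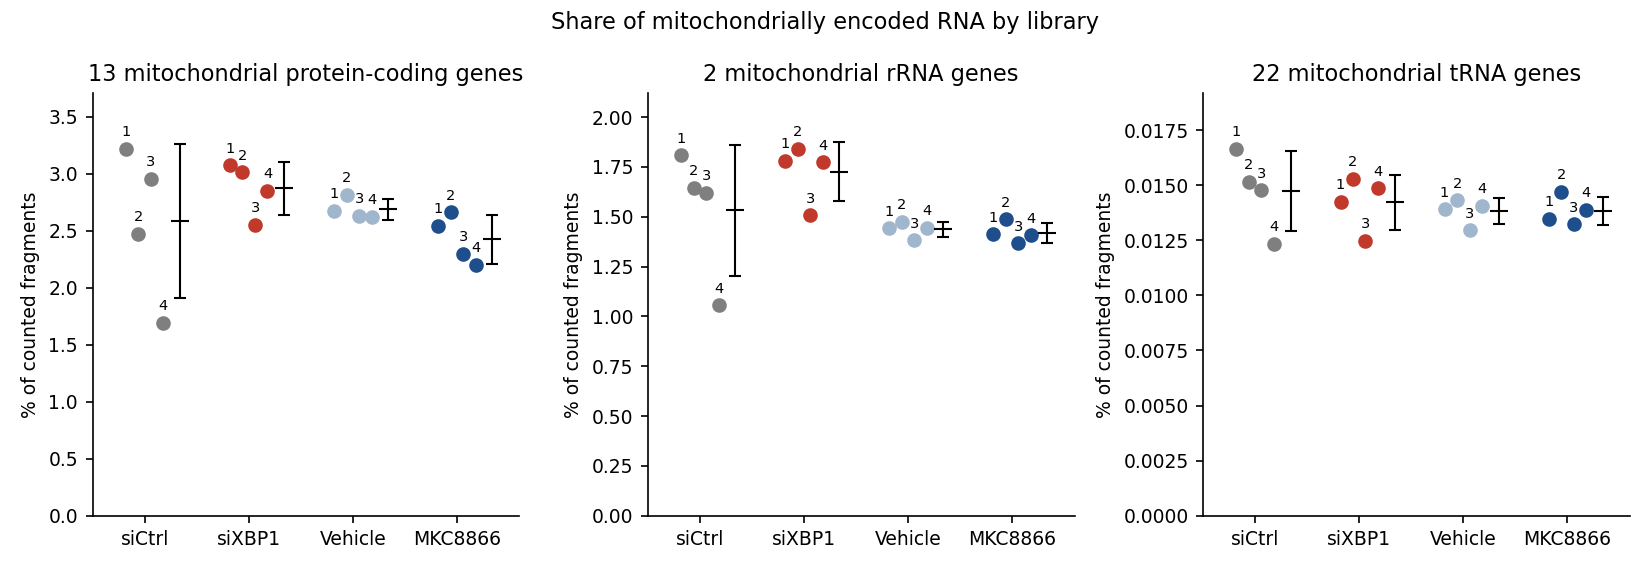
Share of counted fragments (%) on the 13 protein-coding, 2 rRNA and 22 tRNA genes of the mitochondrial genome in each of 16 libraries, with replicate numbers beside the points and the group mean ± SD in black (n = 4). siCtrl replicate 4 is the lowest library in all 3 panels, at 1.69% for protein-coding genes, and MKC8866 replicates 3 and 4 lie at 2.30% and 2.20%.

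Levels of different genes were compared per length, as CPM per kb of annotated gene. In Vehicle, the group with the least spread, MT-RNR2 was highest at 8152 ± 216 CPM per kb (SD, n = 4). It was followed by MT-CO2 at 5044 ± 211 CPM per kb, MT-ND4L at 4485 ± 223, MT-CO3 at 4439 ± 217 and MT-CO1 at 4246 ± 193. MT-CO1, MT-CO2 and MT-CO3 encode the catalytic core of complex IV. MT-ND4L and MT-CO3, and MT-CO3 and MT-CO1, differed by less than the sum of their SDs. Lower down stood MT-ATP6 (2705 ± 92.3 CPM per kb) and MT-ND4 (2284 ± 94.0), then MT-CYB, the complex III subunit (1875 ± 42.9), and MT-RNR1 (1728 ± 75.1). MT-ND1 was at 1476 ± 10.2 CPM per kb, and MT-ND2 at 1105 ± 46.4 could not be separated from MT-ATP8 at 1015 ± 76.0. The lowest were MT-ND5 (893 ± 15.3 CPM per kb), MT-ND3 (789 ± 80.4) and MT-ND6 (480.0 ± 38.2), the only mRNA gene of the light strand. In siCtrl, where 1 library stood apart, the gaps from the second gene of the order down to the fourteenth were all within the sum of the SDs.

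Genes that share an mRNA did not have the same level per length. MT-ND4L, on the same mRNA as MT-ND4, was at 1.96 ± 0.0659 times the MT-ND4 level per kb in Vehicle and 2.02 ± 0.0745 times in siCtrl (SD, n = 4). MT-ATP6 was at 2.67 ± 0.151 times MT-ATP8 per kb in Vehicle and 3.05 ± 0.494 times in siCtrl, although both also lie on 1 mRNA. Fragments over the shared bases were not counted for either gene, which bears on the short members MT-ATP8 (207 bases) and MT-ND4L (297 bases) most. Such a loss lowers a count, and MT-ATP8 was the lower but MT-ND4L the higher member of its pair. The part of this loss in the ratios was not tested. MT-RNR2 was at 4.72 ± 0.136 times MT-RNR1 per kb in Vehicle, while both rRNAs are assembled into the mitochondrial ribosome. Counting ignored strand, so RNA from the strand opposite to a gene was counted with it. This bears on MT-ND6 and the 8 light-strand tRNA genes, which lie opposite heavy-strand RNA.

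Nuclear copies of mitochondrial genes can take fragments from them. Of 399 such genes found by symbol, 298 had no fragment in any library, and the other 101 together had 0.898% as many fragments as the 37 mitochondrial genes. The highest was MTATP6P1 on chromosome 1, at a mean of 194 CPM over the 16 libraries beside 1821 CPM for MT-ATP6. It was followed by MTCO1P12 on the same chromosome, at 49.5 CPM beside 6324 CPM for MT-CO1. MTCO2P12, also on chromosome 1, had 580 to 985 fragments in a library beside 80572 to 129559 for MT-CO2. These levels are uncertain because the copies are nearly identical to their parent genes. Fragments that fit both a copy and its parent gene were left out of the counts. The 0.898% therefore does not bound what the mitochondrial genes lost, and their levels per length may be affected unequally. None of the copies passed the test in the knockdown comparison (18 tested) or in the inhibitor comparison (17 tested), although all 17 had a negative log2 fold change in the latter, with a median of -0.21.

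**Figure D2:**
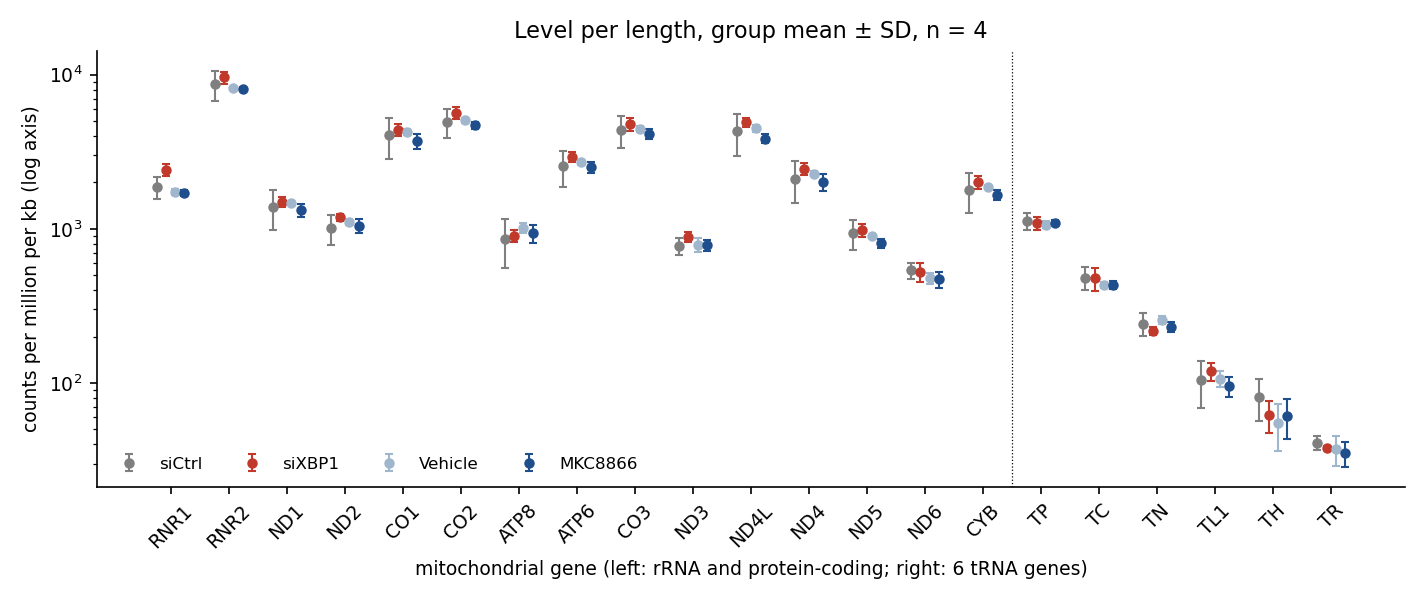
Level per length (CPM per kb of gene, log axis) of the 15 rRNA and protein-coding genes in order along the genome and of 6 tRNA genes, as group mean ± SD (n = 4). MT-RNR2 stands highest in every group, MT-ND6 is the lowest of the rRNA and mRNA genes, and MT-TP lies near MT-ND2 while MT-TR is lower by more than an order of magnitude.

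Fragments on tRNA genes were few and uneven. Over all 16 libraries, MT-TP held 52.5% of the fragments counted on tRNA genes, MT-TC 21.4% and MT-TN 12.2%. These 3 are light-strand genes that border sequence with no annotated gene, MT-TP the control region, 1122 bases between MT-TP and MT-TF on the circle, and the other pair the 31-base gap shown above. MT-TL1, the leucine tRNA between MT-RNR2 and MT-ND1, held 5.58%, MT-TH (histidine tRNA) 3.19% and MT-TR (arginine tRNA) 1.74%. MT-TF, the phenylalanine tRNA, borders the other end of the control region, yet had 29 fragments in the 16 libraries together. MT-TK, a tRNA gene beside a gap of 25 bases, had 104. MT-TP was at 66.6 to 75.4 CPM in Vehicle and 72.2 to 78.2 CPM in MKC8866. These ranges overlapped, as did 64.2 to 85.1 CPM in siCtrl and 64.2 to 79.7 CPM in siXBP1. Sequencing libraries of this kind hold few intact tRNAs, so these counts are not levels of mature tRNA.

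For the knockdown comparison, edgeR's quasi-likelihood test was run on 21021 genes with Benjamini-Hochberg adjustment, and a gene was called at an adjusted p under 0.05. Of all tested genes 34.8% were called, 18.2% lower and 16.5% higher in siXBP1. Of the 37 mitochondrial genes 34 were tested, since MT-TF, MT-TW and MT-TS1 had too few fragments, and 1 was called. This was MT-RNR1, the RNA of the small mitochondrial ribosomal subunit, which was higher after XBP1 knockdown. MT-RNR1 was at 1866, 2033, 1826 and 1359 CPM in siCtrl replicates 1 to 4 and at 2357, 2524, 2052 and 2275 CPM in siXBP1 replicates 1 to 4. Every siXBP1 library was above every siCtrl library, and the closest pair was siXBP1 replicate 3 and siCtrl replicate 2. The log2 fold change was 0.34 ± 0.082 (SE), a 1.27-fold difference, at an adjusted p of 0.0022. It was called in all 8 fits that left out 1 library, and without siCtrl replicate 4 the log2 fold change was 0.24, the lowest of the 8, at an adjusted p of 0.0135. Of all tested genes, 18.5% had every siXBP1 library above every siCtrl library.

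MT-RNR2, the RNA of the large ribosomal subunit from the same precursor, was at 16212, 14408, 14381 and 9186 CPM in siCtrl and 15453, 15893, 13013 and 15462 CPM in siXBP1. These groups overlapped widely, and the log2 fold change was 0.10 ± 0.11 (SE, edgeR adjusted p = 0.497). Without siCtrl replicate 4 it was -0.035. The ratio of MT-RNR2 to MT-RNR1 fragments, which needs no scaling between libraries, was 8.69, 7.09, 7.87 and 6.76 in siCtrl (mean 7.60 ± 0.862, SD, n = 4). In siXBP1 it was 6.56, 6.30, 6.34 and 6.80 (6.50 ± 0.230, n = 4). The siXBP1 ratios lay at the low end, but siXBP1 replicate 4 was above siCtrl replicate 4, so the groups overlapped. Without siCtrl replicate 4 the siCtrl mean was 7.88 ± 0.801 (n = 3), and the groups did not overlap. That separation follows from the choice of library, because replicate 4 was the only siCtrl library within the siXBP1 range. In this ratio it was not far from siCtrl replicate 2, at 7.09. In Vehicle the ratio was 7.72 ± 0.223 and in MKC8866 7.73 ± 0.105 (SD, n = 4 each).

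**Figure D3:**
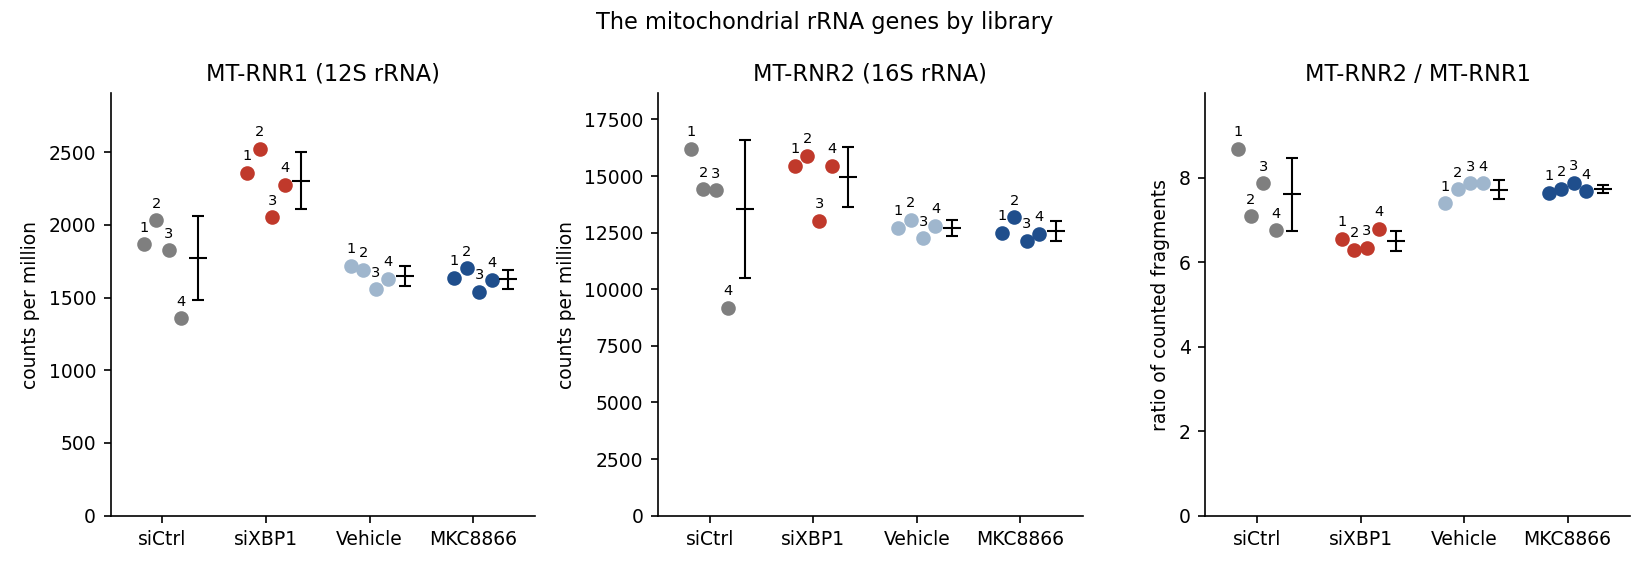
MT-RNR1 (CPM), MT-RNR2 (CPM) and the ratio of their counted fragments in each library, with replicate numbers beside the points and group mean ± SD in black (n = 4). The 4 siXBP1 libraries lie between 2052 and 2524 CPM for MT-RNR1, above all other libraries, whereas for MT-RNR2 they overlap siCtrl.

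RNAs without a poly(A) tail were taken as a check of how the rRNAs could have been captured, since the sources used here do not say whether poly(A) selection or rRNA removal was done. The noncoding RNAs RN7SK, RN7SL1, RMRP and RPPH1 had no counted fragment in any library. Fragments on several places or genes were left out of the counts. These zeros therefore cannot tell RNA that was not captured from fragments lost in counting. RN7SL2 was at 18.1 ± 11.6 CPM in siXBP1 and 14.7 ± 4.32 CPM in siCtrl, and the histone mRNA H1-4 at 11.3 ± 1.24 and 15.5 ± 1.80 CPM (SD, n = 4). Of the 4 RNAs of this list of 8 that could be tested, 1 was called after knockdown, H1-4, with a log2 fold change of -0.49 ± 0.089 (SE). The other 3, none of them called, had positive log2 fold changes with wide errors: 0.25 ± 0.26 for RN7SL2, 0.56 ± 0.50 for SNORD3A and 0.31 ± 0.65 for H4C3 (SE). H4C3 had only 0 to 7 fragments a library in siCtrl and 2 to 11 in siXBP1, and SNORD3A 3 to 6 and 4 to 9. The median of the 4, 0.28, rests on such wide errors and cannot be set against the 0.34 of MT-RNR1. With MKC8866, H1-4 was called in the higher direction (0.26 ± 0.069, SE). Whether capture of untailed RNA had a part in the MT-RNR1 difference was not tested.

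None of the 13 mRNAs was called after XBP1 knockdown. Their log2 fold changes ran from -0.063 for MT-ND6 to 0.19 for MT-ND2, with a median of 0.13 beside a median of 0.00 over all tested genes, and 12 of 13 were positive. The smallest adjusted p was that of MT-ND3, a complex I subunit, at 0.0591 with a log2 fold change of 0.16 ± 0.064 (SE). MT-ND3 was at 305, 271, 268 and 227 CPM in siCtrl and 305, 334, 282 and 306 CPM in siXBP1, so that the groups overlapped. The direction of the mRNAs rested on siCtrl replicate 4. Without that library the median over the 13 mRNAs was -0.023, and 8 were negative. Without siCtrl replicate 1, the siCtrl library with the highest share of mitochondrial fragments, the median was 0.24 and 6 mitochondrial genes were called higher (MT-RNR1, MT-ND2, MT-ATP8, MT-ND3, MT-ND4L and MT-CYB), beside 16.3% of all genes tested in that fit. Without siXBP1 replicate 3, MT-RNR1 and MT-ND3 were called higher, beside 15.9% of all tested genes.

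None of the 19 tested tRNA genes was called in the knockdown comparison. The smallest adjusted p was that of MT-TH, at 0.0582 with a log2 fold change of -0.43 ± 0.17 (SE). MT-TH was at 4.94, 4.23, 5.20 and 8.06 CPM in siCtrl and at 4.21, 4.70, 2.91 and 5.21 CPM in siXBP1, from 85 to 278 fragments a library. Without siCtrl replicate 4 the log2 fold change was -0.19, whereas MT-TH was called lower without siCtrl replicate 2 or without siXBP1 replicate 4. Over all genes tested in those fits, 16.6% and 16.2% were called lower. MT-TN had 435 to 512 fragments in siXBP1 libraries and 481 to 673 in siCtrl libraries, with a log2 fold change of -0.19 ± 0.092 (SE, adjusted p = 0.131). Among the 8 fits without 1 library, it was called lower when siCtrl replicate 4 was left out, beside 16.4% of all genes tested in that fit. So was MT-TI, the isoleucine tRNA, which had 2 to 37 fragments in the libraries of the experiment.

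In the inhibitor comparison, edgeR called 4.47% of 21045 tested genes, 3.11% lower and 1.36% higher in MKC8866. Of the 32 mitochondrial genes tested, 5 were called, all mRNAs and all lower in MKC8866. These were MT-ND4L, MT-ND5 and MT-ND1 of complex I, MT-CYB of complex III and MT-CO1, the catalytic subunit of complex IV. All 13 mRNAs had a negative log2 fold change, beside 49.1% of all tested genes. The median over the 13 was -0.12, beside 0.00 over all tested genes. The members come from shared precursors and were counted in the same libraries, so they are not independent of each other. Every MKC8866 library was below every Vehicle library in 4 of the 32 tested mitochondrial genes (MT-ND1, MT-ND4L, MT-ND5 and MT-CYB), and in 4.53% of all tested genes.

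MT-ND4L was at 1391, 1383, 1301 and 1253 CPM in Vehicle replicates 1 to 4 and at 1229, 1177, 1099 and 1056 CPM in MKC8866 replicates 1 to 4. The groups did not overlap. The log2 fold change was -0.24 ± 0.044 (SE, 0.848-fold, edgeR adjusted p = 0.000871), and MT-ND4L was called in all 8 fits that left out 1 library. MT-CYB was at 2101, 2206, 2104 and 2145 CPM in Vehicle and at 1960.5, 2083, 1785 and 1784 CPM in MKC8866, with only a narrow gap between the closest libraries. Its log2 fold change was -0.18 ± 0.041 (SE, edgeR adjusted p = 0.00729). MT-ND5 was at 1612, 1644, 1582 and 1636 CPM in Vehicle and at 1517, 1554, 1358 and 1404 CPM in MKC8866, again without overlap, with a log2 fold change of -0.16 ± 0.038 (SE, edgeR adjusted p = 0.0102). Without MKC8866 replicate 3 neither was called, at adjusted p-values of 0.0538 for MT-CYB and 0.0737 for MT-ND5.

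MT-CO1 was at 6388, 6930.5, 6620.5 and 6248 CPM in Vehicle and at 6143, 6411, 5433 and 4945 CPM in MKC8866. Here MKC8866 replicate 2 lay within the Vehicle range, and replicates 3 and 4 were clearly below it. The log2 fold change was -0.21 ± 0.053 (SE, edgeR adjusted p = 0.0224). MT-ND1 was at 1401 to 1424 CPM in Vehicle and at 1334, 1389, 1203 and 1121 CPM in MKC8866, with a log2 fold change of -0.17 ± 0.046 (SE, edgeR adjusted p = 0.0274). MT-CO1 kept its call in 4 of the 8 fits without 1 library and MT-ND1 in 3. MT-CO1 was not called without Vehicle replicate 2 or 3 or MKC8866 replicate 3 or 4 (adjusted p up to 0.113), and MT-ND1 not without Vehicle replicate 1, 3 or 4 or MKC8866 replicate 3 or 4 (up to 0.129). Leaving out MKC8866 replicate 3 left 1 called mitochondrial gene, MT-ND4L, leaving out MKC8866 replicate 4 left 3, and leaving out MKC8866 replicate 2 gave 9. Over all tested genes, 2.53%, 2.71% and 4% were called lower in these 3 fits. DESeq2 called 5.13% of the tested genes, 3.42% in the lower direction, and 6 mitochondrial genes, the 5 above and MT-ND4.

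The other 8 mRNAs were not called in the fit of these 8 libraries without a block. MT-ND4, which follows MT-ND4L on the same mRNA, had a log2 fold change of -0.19 ± 0.056 (SE, adjusted p = 0.0505). MT-CO2, MT-ATP6 and MT-CO3 had values of -0.12, -0.12 and -0.11, MT-ATP8 -0.12 and MT-ND2 -0.09. The smallest changes were those of MT-ND3 at -0.024 and MT-ND6 at -0.041. Neither rRNA was called: MT-RNR1 had a log2 fold change of -0.034 ± 0.038 (SE, edgeR adjusted p = 0.754) and MT-RNR2 -0.030 ± 0.031 (SE, edgeR adjusted p = 0.734). The approximate 95% interval of the MT-RNR1 change ran from -0.11 to 0.040 on the log2 scale. None of the 17 tested tRNA genes was called, and MT-TN had the smallest adjusted p, at 0.222 with a log2 fold change of -0.16 ± 0.068 (SE). When all 16 libraries were fitted together, so that the wide spread of siCtrl entered the shared variance, none of the 5 genes was called. Their log2 fold changes then stayed between -0.24 and -0.16, and their adjusted p-values were 0.342 to 0.529.

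**Figure D4:**
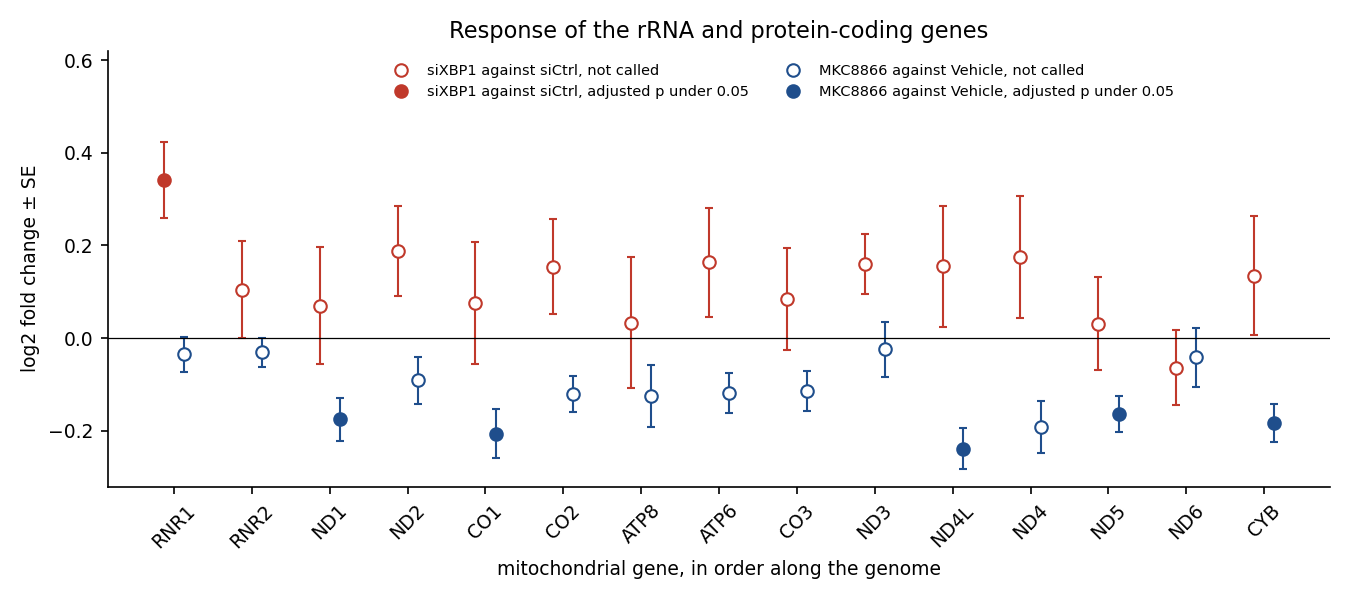
Log2 fold change ± SE of the 2 rRNA and 13 protein-coding genes in order along the genome, for siXBP1 against siCtrl (red) and MKC8866 against Vehicle (blue), with filled points for genes at an adjusted p under 0.05. MT-RNR1 at 0.34 is the only filled red point, and all 15 blue points lie below 0, 5 of them filled.

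The responses to knockdown and inhibitor were compared as an interaction over all 16 libraries, in which 23.3% of 20357 tested genes were called, 12.7% with a lower and 10.6% with a higher value in the knockdown experiment. Of 32 mitochondrial genes tested, MT-RNR1 was the only one called, with a difference of 0.38 ± 0.10 (SE, log2) between its responses at an edgeR adjusted p of 0.00823. It was called in all 16 fits that left out 1 library, with differences of 0.27 to 0.45. Among the 13 mRNAs the difference had a median of 0.28 and 12 were positive, and the smallest adjusted p was that of MT-ND4L at 0.0871 (0.40 ± 0.17, SE). Without siCtrl replicate 1, 10 mitochondrial genes were called, and without siCtrl replicate 3 MT-RNR1, MT-ND4 and MT-ND4L were called, all higher, beside 10.6% and 10.3% of all genes tested in those fits. Without siCtrl replicate 4 the median over the mRNAs was 0.11. The kind of inhibition and the experiment cannot be told apart in this comparison.

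siCtrl replicate 4 was not lower by the same factor in every mitochondrial gene. Relative to the mean of the other 3 siCtrl libraries, MT-CO1 was at 54.2%, MT-ND4L at 54.8%, MT-ND4 at 55.6% and MT-ND1 at 56.1%. MT-CO2, MT-CO3 and MT-RNR2 were at 62.5%, 60.8% and 61.2%, MT-ND2 at 64.9% and MT-ND5 at 66.7%. MT-RNR1 at 71.2%, MT-ND3 at 80.5% and MT-ND6 at 80.7% were nearest to the other libraries among the rRNAs and mRNAs. Among tRNAs, MT-TP was at 79.9% and MT-TL1 at 53.5%, while MT-TH, at 168%, was higher in this library than in any other of the 16. The library's total, 34487498 counted fragments, was among the highest.

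**Figure D5:**
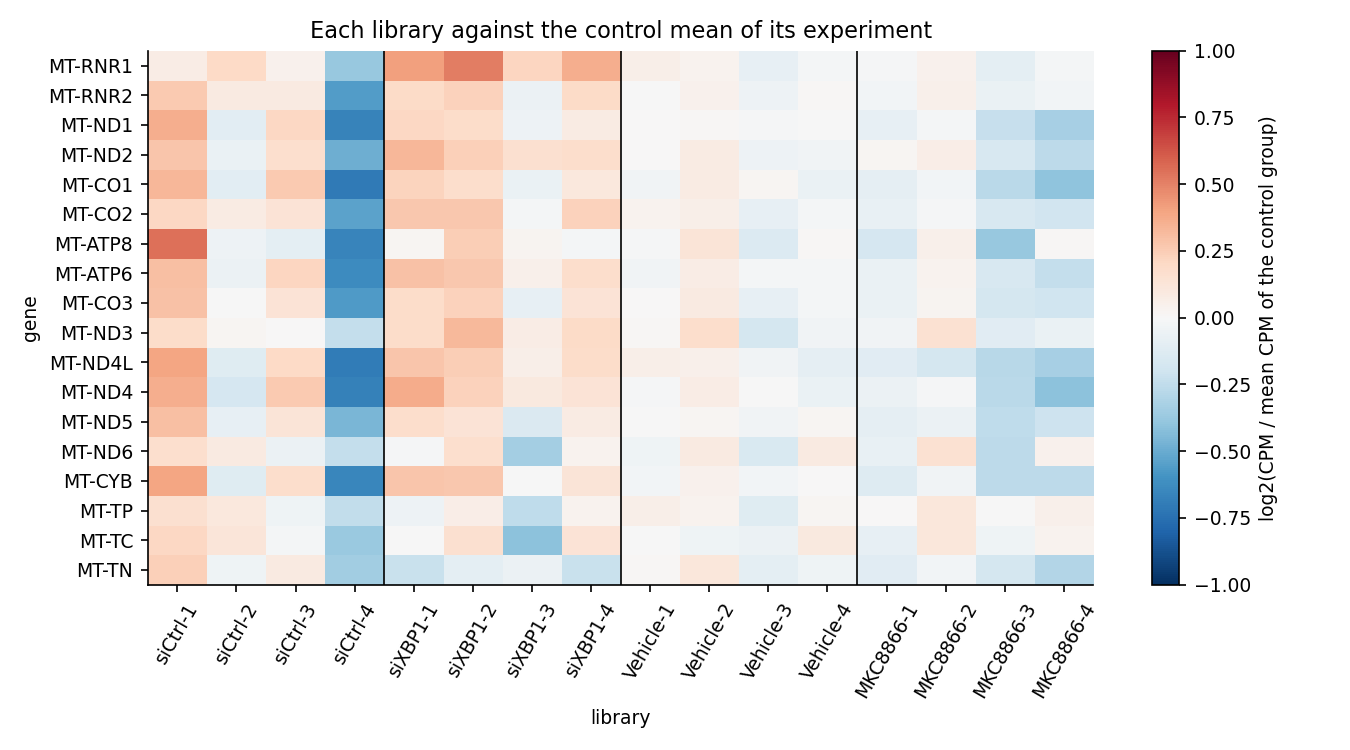
Log2 ratio of each library's CPM to the mean CPM of the control group of its experiment (siCtrl for the first 8 libraries, Vehicle for the last 8), for the 15 rRNA and mRNA genes and 3 tRNA genes. siCtrl replicate 4 is blue throughout, down to -0.71 for MT-CO1, MT-RNR1 is red in all 4 siXBP1 libraries, and MKC8866 replicates 3 and 4 are blue in most mRNAs, at -0.27 and -0.40 for MT-CO1.

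Nuclear genes that act on these transcripts were described from lists of known functions. After XBP1 knockdown, 4 of 9 genes of mitochondrial transcription were called lower and 1 higher, beside 18.2% and 16.5% of all tested genes. For MKC8866 those shares were 3.11% and 1.36%, and both pairs of shares apply to each list below. TFB2M, which helps the polymerase melt the promoter, was at 25.8 ± 2.17 CPM in siCtrl and 20.0 ± 2.00 CPM in siXBP1 (SD, n = 4 each), with a log2 fold change of -0.40 ± 0.073 (SE, edgeR adjusted p = 0.000137). MTERF4 had a log2 fold change of -0.25, while TFAM, which packages mitochondrial DNA and activates its promoters, was higher at 0.23 ± 0.042 (SE, edgeR adjusted p = 0.00014). With MKC8866, 1 of the 9 was called, TFB2M at -0.21 ± 0.058 (SE, edgeR adjusted p = 0.0332), and it was called in 4 of 8 fits without 1 library, with adjusted p-values up to 0.133 in the others. The 2 responses of TFB2M were not called different (adjusted p = 0.166).

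Of 21 genes of mitochondrial RNA processing and stability, 8 were called lower and 1 higher after knockdown (42.9%, beside 34.8% of all tested genes). FASTKD5, which takes part in processing junctions that lack a tRNA, had a log2 fold change of -0.41 ± 0.046 (SE, edgeR adjusted p = 2.3e-07). PDE12, which removes poly(A) tails in mitochondria, had -0.41 ± 0.050 (SE, edgeR adjusted p = 8.6e-07). LRPPRC, which stabilizes mitochondrial mRNAs, was at 177 ± 3.10 CPM in siCtrl and 150 ± 7.74 CPM in siXBP1 (SD, n = 4 each), a log2 fold change of -0.27 (edgeR adjusted p = 1.98e-05). None of the 21 was called with MKC8866, and LRPPRC there had a log2 fold change of -0.0038 ± 0.039 (SE). Its 2 responses differed, by -0.27 (edgeR adjusted p = 0.000547).

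Among 17 genes of mitochondrial rRNA modification and ribosome assembly, 5 were called lower and 1 higher after knockdown. This share, 35.3%, was near the 34.8% of all tested genes. MPV17L2, a mitochondrial membrane protein needed for ribosome assembly, fell from 67.1 ± 3.75 CPM in siCtrl to 23.3 ± 1.19 CPM in siXBP1 (SD, n = 4 each), a log2 fold change of -1.56 ± 0.054 (SE, edgeR adjusted p = 8.36e-16). With MKC8866 it fell from 62.7 ± 3.86 to 51.1 ± 1.13 CPM, a log2 fold change of -0.31 ± 0.050 (SE, edgeR adjusted p = 0.000174). MPV17L2 was the 1 gene of this list called with MKC8866. NSUN4, which methylates 12S rRNA and acts in ribosome assembly, had a log2 fold change of -0.27 after knockdown, and RPUSD4, a pseudouridine synthase acting on 16S rRNA, had -0.36.

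Of 10 genes that maintain mitochondrial DNA, 5 were called lower after knockdown, beside 18.2% of all tested genes, and none higher. RNASEH1, which removes RNA from RNA-DNA hybrids, had a log2 fold change of -0.73 ± 0.050 (SE, edgeR adjusted p = 1.04e-10), and with MKC8866 it had -0.29 ± 0.051 (SE, edgeR adjusted p = 0.000476). POLG2, the accessory subunit of the mitochondrial DNA polymerase, had -0.55 and LIG3, a DNA ligase, -0.26 after knockdown. Of 13 genes of mitochondrial translation, 1 was called lower and 3 higher after knockdown. This share, 30.8%, was below the 34.8% of all tested genes. MTFMT, which formylates the initiator methionine tRNA, had a log2 fold change of 0.67 ± 0.061 (SE, edgeR adjusted p = 1.04e-08). MTIF2 had -0.21 and GFM1 0.16, the latter not called without siXBP1 replicate 3 (adjusted p = 0.086). With MKC8866 the translation list had 1 call, MTRFR at -0.17.

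The nuclear subunits of the complexes that hold mitochondrially encoded proteins, together with complex II, gave 78 genes. After knockdown, 8 were called lower and 11 higher, and the median log2 fold change was 0.030. This share, 24.4%, was below the 34.8% of all tested genes. The shares were 18.9% for complex I, 75% for the 4 genes of complex II and 33.3% for complex III. They were 27.3% for complex IV and 17.6% for ATP synthase. NDUFV3 had a log2 fold change of -0.35 and NDUFA5 0.45, in a list of 37 complex I genes of which 3 were called lower and 4 higher. SDHD, a membrane anchor of complex II, had a log2 fold change of -1.02 ± 0.076 (SE, edgeR adjusted p = 3.83e-10), with SDHC at -0.19 and SDHB at 0.14. In complex III, 1 of 9 was called lower (UQCRC2, -0.13) and 2 higher (UQCRFS1, 0.28, and UQCR10, 0.25), and in complex IV 3 of 11 were called higher (COX5A, 0.31, COX4I1, 0.21, and COX6C, 0.16). Of 17 ATP synthase genes, ATP5PB (-0.64) and ATP5MC1 (-0.43) were called lower and ATP5F1D (0.45) higher. UQCRC2 was called in 4 and COX6C in 3 of the 8 fits without 1 library.

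With MKC8866, 3 of these 78 genes were called, all lower: NDUFA1 (-0.19, adjusted p = 0.0257), NDUFC2 (-0.23, 0.0433) and ATP5MC1 (-0.19, 0.0185). They kept their calls in 4, 1 and 6 of the 8 fits without 1 library. This share, 3.85%, was below the 4.47% of all tested genes, but 71 of the 78 had a negative log2 fold change, beside 49.1% of all tested genes, and the median was -0.083. The 13 mitochondrially encoded mRNAs had a median of -0.12 in the same comparison. By complex, the values were negative in 10 of 11 complex IV genes (median -0.14), 32 of 37 complex I genes (-0.081), all 17 ATP synthase genes (-0.083), all 9 complex III genes (-0.061) and 3 of 4 complex II genes (-0.061). In the knockdown comparison 28 of the 78 were negative, beside 49.3% of all tested genes.

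Of 7 nuclear regulators of mitochondrial biogenesis, 3 were called higher and 1 lower after knockdown, beside 16.5% and 18.2% of all tested genes. PPARGC1A, the coactivator PGC-1α, was at 2.14 ± 0.318 CPM in siCtrl and 4.59 ± 0.377 CPM in siXBP1 (SD, n = 4 each), a log2 fold change of 1.06 ± 0.13 (SE, edgeR adjusted p = 7.5e-07). NRF1, a transcription factor of nuclear genes for mitochondrial proteins, had 0.68 ± 0.048 (SE, edgeR adjusted p = 1.61e-10), and PPRC1, a coactivator related to PGC-1α, had -0.40. None of the 7 was called with MKC8866. Over all 155 listed nuclear genes, 33.5% were called after knockdown, beside 34.8% of all tested genes, and 4.52% with MKC8866, beside 4.47%.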

How the data were processed

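RNA-seq of 16 LNCaP libraries was analysed from 1 deposited table. The authors aligned paired-end reads to hg38 with STAR 2.5.2a and counted fragments per gene with featureCounts (Subread, 1.5.0, per the labels) on an Ensembl annotation. The values are raw counts as the authors deposited them, without normalization. The command in the file header sets neither strand, multimapping nor overlap options, so strand was ignored and fragments on several places or genes were left out. The library kit was stranded. All 37 mitochondrial gene positions were identical in the reference annotation, and sequences were read from hg38.

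The 37 genes and all lists were chosen with earlier results of these data known. All 37 could be named, with up to 3 called genes per nuclear list and comparison with the smallest p, XBP1, and the 3 nuclear copies with the highest mean counts. One gene that this rule would name is not reported here. A gene entered a comparison if, in each of its groups, some library exceeded 5 counts. Tests used the two-sided quasi-likelihood F test of edgeR 4.0.16 on TMM-scaled counts, with Benjamini-Hochberg adjustment (R 4.3.3), each treatment against its own control. SEs come from the fold change and the F statistic. CPM use the library total of counts, whereas fold changes include TMM factors (0.983 to 1.02). Totals were 28713607 to 34509488 fragments per library, so replicate spread limits precision except for most tRNAs. Alternatives were DESeq2 1.42.0 (the study's tool), other normalizations and filters, 1 joint fit of all libraries, a block for the replicate number, and leaving out each library. The scripts were tested on simulated data. Python steps used numpy 2.4.6, pandas 2.3.3, scipy 1.17.1 and matplotlib 3.10.9.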

Additional observations from a re-analysis of the deposited data

Results flagged for a closer look

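MT-RNR1 responded differently in the 2 experiments: its log2 response to XBP1 knockdown exceeded that to MKC8866 by 0.38 (edgeR interaction, adjusted p = 0.00823). The experiments have separate controls and times, so the kind of inhibition cannot be told apart from the experiment.

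Of 108 sets of 4 libraries checked with Dixon's criterion (each mitochondrial gene with enough counts, and the shares and ratios, in each group), 2 had a library far from the other 3, fewer than the 1 in 20 that chance gives. Both were siXBP1 replicate 3, which had 13013 CPM of MT-RNR2 beside 15453 to 15893 CPM in the other 3 siXBP1 libraries, and 3342 CPM of MT-CO2 beside 3974 to 4093 CPM. siCtrl replicate 4 did not pass this criterion in any gene.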

How the results depend on the processing

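MT-RNR1 was called higher after knockdown, and different between experiments, under all 7 and all 4 other settings run. Mitochondrial calls in the knockdown comparison, 0 lower and 1 higher, were 2 lower and 9 higher without a filter on low counts (10.4% of all tested genes in each direction), and left-out libraries gave 0 to 2 lower and 1 to 6 higher (16.2% to 17.4% lower and 15.3% to 16.7% higher over all genes). The 5 lower calls with MKC8866 became 0 when all 16 libraries were fitted together (2.99% lower over all genes) and ranged from 1 to 9 over left-out libraries (2.53% to 4%). DESeq2 called 12 of the 155 nuclear list genes with MKC8866 in place of 7, beside 5.13% of all tested genes in place of 4.47%. Calls of the difference, 0 lower and 1 higher, ranged from 1 to 10 higher over left-out libraries (9.38% to 10.6%). The causes were not tested.

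Same-numbered libraries deviated together with correlations of 0.00445 to 0.0494 in the knockdown experiment and 0.075 to 0.246 in the inhibitor experiment, where 3 of the 4 pairs, and no pair with different numbers, were over 0.1. As 1 pair was not, the numbers were not taken as pairs. In the inhibitor experiment 6 of 8 libraries correlated best with their own number, and 0 of 8 in the knockdown experiment. With the replicate number as a block, calls were 1 lower and 3 higher for knockdown (34.8% of all tested genes). For MKC8866 12 were called lower, namely MT-TN and all mRNAs other than MT-ND3 and MT-ND6. Over all tested genes 7.05% were called lower in that fit, and 2746 genes were called in place of 941. Of the 155 nuclear list genes 42 were called for MKC8866, beside 13% of all tested genes. For the difference, 1 was called lower and 6 higher (27.7% of all tested genes).

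The sign of uncalled log2 changes turned in some fits without 1 library. In the knockdown comparison the ranges were -0.035 to 0.21 for MT-RNR2, -0.090 to 0.22 for MT-ND1, -0.091 to 0.21 for MT-CO1, -0.13 to 0.28 for MT-ATP8, -0.056 to 0.20 for MT-CO3, -0.011 to 0.32 for MT-ND4L, -0.087 to 0.16 for MT-ND5, -0.13 to 0.031 for MT-ND6 and -0.023 to 0.30 for MT-CYB. For MKC8866 they were -0.086 to 0.035 for MT-ND3 and -0.11 to 0.028 for MT-ND6. For the difference they were -0.011 to 0.24 for MT-RNR2, -0.0084 to 0.41 for MT-ATP8 and -0.093 to 0.069 for MT-ND6. The log2 ratio of protein-coding shares, 0.15 after knockdown, was 0.11 to 0.16 with TMM scaling or nuclear protein-coding fragments as the denominator and -0.0053 to 0.28 over left-out libraries. With MKC8866 it was -0.15, with ranges of -0.16 to -0.15 and -0.19 to -0.10. The MT-RNR2 to MT-RNR1 ratio differed by -1.11 after knockdown and by -1.39 to -0.74 over left-out libraries, an alternative chosen after the data were seen. Depth limits only the tRNA genes other than MT-TP, MT-TC and MT-TN.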

Other observations

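The mRNAs that were lowest in siCtrl replicate 4, relative to the other 3 siCtrl libraries, were mostly those with the most negative values in the inhibitor comparison, which shares no library with siCtrl. Over the 13 mitochondrial mRNAs, the log2 ratio of siCtrl replicate 4 to the other siCtrl libraries and the log2 fold change of MKC8866 against Vehicle had a Pearson's r of 0.85 and a Spearman's rho of 0.87. With both rRNAs added, the values over 15 genes were 0.79 and 0.83. MT-CO1, MT-ND4L, MT-ND4, MT-ND1 and MT-CYB were at the low end of both, and MT-ND3 and MT-ND6 at the high end. The points are genes of shared precursors in the same libraries, not independent replicates, and the pattern was chosen after the values were seen. The likeness was not particular to siCtrl replicate 4. In siCtrl replicate 2, MT-ND4, MT-ND4L, MT-CYB, MT-ND1, MT-CO1 and MT-ND5 were the lowest mRNAs, at log2 ratios of -0.17 to -0.085 to the siCtrl mean. MT-ND3 at 0.017, MT-CO2 at 0.081 and MT-ND6 at 0.092 were its highest. In siCtrl replicates 1 and 3 the genes that were lowest in replicate 2 lay above that mean, at 0.13 to 0.40. What the libraries have in common was not tested.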
